A study of Arabidopsis thaliana with 4 samples.

Results

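The 10 genes described here are 6 calmodulin-like genes (CML23, CML37, CML38, CML41, CML42 and CML43), the zinc finger gene STZ and the WRKY factor genes WRKY6, WRKY22 and WRKY53, out of 13356 genes that the platform annotation ties to a probe set of their own. Each gene was read through the probe sets that the annotation maps to it alone, and since none of the 10 had more than 1 such probe set, no choice between probe sets had to be made. The arrays hold RNA from *Arabidopsis thaliana* seedlings (ecotype Col-0) kept at 23 °C in days of 16 h light and 8 h dark. Control seedlings carried the 35S-GVG transgene, in which the broadly active 35S promoter drives GVG, a chimeric transcription activator that dexamethasone switches on. RKD4-induced seedlings carried 35S-GVG together with UAS-RKD4, so that GVG drives RKD4, an RWP-RK transcription factor known from the early embryo. All seedlings, controls included, were moved to 1 µM dexamethasone at day 2 after germination and collected at day 3, after 24 h. Each line is represented by 2 arrays, pool 1 and pool 2, each with RNA of 60 whole seedlings. The series design calls the pools independent, so p-values here take the 2 pools per line as replicates. The spread they use is that between a gene's pools, drawn by the fit towards that of probe sets of like signal. Neither seedlings without dexamethasone nor a probe set named for RKD4 are among the values used here, so a difference between the lines cannot be assigned to RKD4 from these arrays, and the induction of RKD4 was not checked.

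Plant cells answer touch, wounding, cold, salt and microbes with brief rises of calcium in the cytosol. Calmodulin and the calmodulin-like proteins bind calcium through EF-hand motifs and have no enzyme activity of their own, so they act by binding other proteins. Many of their genes, like those of the STZ type of zinc finger proteins and of several WRKY factors, are themselves known for fast and short-lived transcription after a stimulus. WRKY factors bind the W-box, a short promoter element found in many defence and senescence genes.

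The median signal of the 4 arrays lay between 175 and 185 on the authors' linear scale, and having 2 arrays a line limits how precisely any change is known. On the log2(signal + 32.4) scale described below, 201 of 22746 probe sets lay more than 2-fold apart between the control pools. Between the RKD4-induced pools 57 did. Raw signals of weak probe sets can differ by more than 2-fold without being counted. The 5 named shoot markers (such as RCA and LHCB4.1) read between 974 and 41794, and their summed signal was 100423 and 113201 in the control pools and 96984 and 91747 in the induced pools. Of these 5, PORB passed the test as lower (adjusted p = 0.0202) and 4 did not pass. The 3 named root markers read between 50.1 and 973, with a summed signal of 1763 and 1361 against 888 and 938. Most of that sum came from EXPA18 and EXPA7, which read 973 and 722 in control pool 1. The root hair genes EXPA7 and EXPA18 passed as lower, while JKD, the third, read 68.0 and 50.1 against 61.1 and 55.7 and did not pass (adjusted p = 0.993). The calls of PORB, EXPA7 and EXPA18 were each kept in 1 of the 4 fits with an array left out. PAP85, the single seed reserve marker, read 64.8 and 35.6 against 1.55 and 13.2. It passed as lower (adjusted p = 0.0311), with both induced values under the 32.4 added on the log2 scale. The part of these markers in the results below was not tested. In RNA of whole seedlings, fewer cells of a type and less RNA per cell cannot be told apart. Changes are given as RKD4-induced minus control in log2(signal + 32.4), where adding 32.4 shrinks the differences of weak genes, with the standard error of the limma fit over all probe sets and a p adjusted over all of them by Benjamini-Hochberg. Signals of different probe sets are not comparable with each other and are compared only between arrays. A fit with an array left out takes the lone array to vary as the other line does. Its p therefore leaves out the gap between the pools of the line that lost an array.

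Of the 10 genes, CML42 fell, WRKY22 rose, and 8 did not pass an adjusted p of 0.05. Over all 13356 genes 20.0% passed, 9.59% higher and 10.4% lower in induced seedlings, so the share among the 10 genes was the share of the array as a whole. The estimated change was below 0 for 8 genes and above 0 for WRKY6 and WRKY22. The median change of the 10 was -0.55, against -0.08 over all probe sets. That median rested on control pool 1: without it the median was -0.07, next to -0.07 over all probe sets, with 5 genes below and 5 above 0. Control pool 1 gave the highest of the 4 signals for 7 of the 10 genes.

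**Figure D1:**
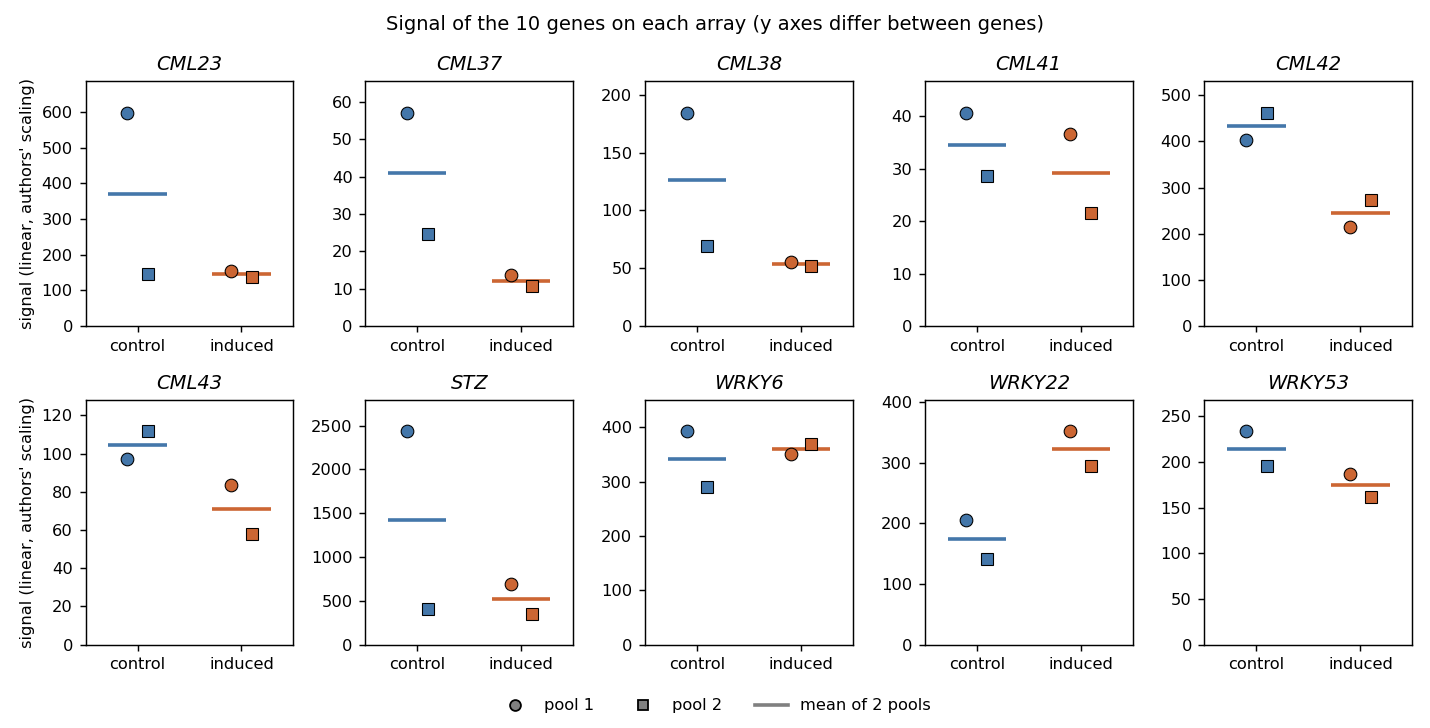
Signal of each of the 10 genes (y axis, linear scale from 0, a separate range per gene) in control (blue) and RKD4-induced (orange) seedlings, with circles for pool 1, squares for pool 2 and a bar at the mean of 2 pools. For STZ, CML23, CML38 and CML37 control pool 1 lies well above the other 3 arrays. For CML42 and WRKY22 the gap between the lines is wider than the gap between the pools of either line.

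Among the calcium sensors, CML42 was the one that passed. CML42, known for a role in trichome branching and in defence against herbivores, read 404 and 462 in control pools 1 and 2 and 215 and 273 in induced pools 1 and 2. All induced values lay below all control values, and in each line it was pool 2 that read higher. CML42 fell by 0.76 ± 0.16 (SE, adjusted p = 0.0207, 95% interval -1.14 to -0.37), a ratio of control to induced means of 1.77. The call did not hold with any array left out, where the change lay between -0.91 and -0.60 and the adjusted p between 0.0522 and 0.115, in fits with 1 degree of freedom fewer.

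CML23, whose product acts with its close relative CML24 in the timing of flowering, read 597 in control pool 1 and 145 in control pool 2, and 154 and 137 in induced pools 1 and 2. Control pool 1 stood 4.11-fold above control pool 2, which lay between the induced pools, so the lines overlapped. The change was -0.91 ± 0.54 (adjusted p = 0.289, 95% interval -2.23 to 0.41). Without control pool 1 it was 0.00173 and without control pool 2 it was -1.82, so the estimate depended on which control pool was kept.

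CML38, a gene known for its strong rise under low oxygen and for the RNA granules its protein joins, read 184 and 69.1 in the control pools and 55.1 and 51.7 in the induced pools. Both induced values lay below both control values, though control pool 2 was nearer to them than to control pool 1. The change of -0.79 ± 0.36 did not pass (adjusted p = 0.172). It was -0.24 without control pool 1 and -1.34 without control pool 2.

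CML37, which acts in jasmonate-dependent defence against herbivores, read 57.0 and 24.7 in the control pools and 13.8 and 10.6 in the induced pools. The lines did not overlap, but only control pool 1 was above the pseudocount of 32.4. On the log2 scale CML37 lay at -0.68 ± 0.24 with an adjusted p of 0.101 (unadjusted p = 0.0311). With a pseudocount of 1 the value was -1.56 (adjusted p = 0.108), which shows how far the size depends on the scale for so weak a gene. Without control pool 1 the value was -0.36, and without control pool 2 it was -1.01.

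CML41 and CML43 showed no gap between the control pools of this kind. CML41, which acts at plasmodesmata in the response to bacterial flagellin, read 40.6 and 28.5 in the control and 36.7 and 21.6 in the induced pools, values on both sides of the pseudocount that overlapped between the lines. Its change was -0.13 ± 0.21 (adjusted p = 0.716, 95% interval -0.63 to 0.37), and between -0.30 and 0.0502 with arrays left out in turn. CML43, known from the hypersensitive response to pathogens, read 97.2 and 112 in the control and 83.5 and 58.0 in the induced pools. Its induced values lay below its control values, but the change of -0.42 ± 0.20 (adjusted p = 0.201, 95% interval -0.91 to 0.08) did not pass the test. Without induced pool 2 it was -0.24 (adjusted p = 0.564), and over all arrays left out in turn it lay between -0.60 and -0.24.

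STZ, also called ZAT10, encodes a zinc finger repressor that is known to be induced by salt, cold and drought, and it varied most among the 10. It read 2433 in control pool 1, 409 in control pool 2, 692 in induced pool 1 and 344 in induced pool 2. The induced pools lay on either side of control pool 2, and both were far below control pool 1. The change over all 4 arrays was -0.999 ± 0.77 (adjusted p = 0.412, 95% interval -2.86 to 0.86). It turned to 0.24 without control pool 1 and was -2.24 without control pool 2. The interval includes both a fall of several fold and a rise, so these arrays do not settle the response of STZ.

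WRKY22, a factor that acts downstream of MAP kinases in the response to flagellin, read 205 and 142 in the control and 352 and 294 in the induced pools. The lines did not overlap, and pool 1 was the higher one in both. WRKY22 rose by 0.80 ± 0.20 (adjusted p = 0.0353, 95% interval 0.32 to 1.28), a ratio of means of 1.86. With arrays left out in turn the change lay between 0.58 and 1.03 and kept its call only without control pool 1 (1.03, adjusted p = 0.0468).

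WRKY53, a regulator of leaf senescence, read 234 and 196 in the control and 187 and 162 in the induced pools. The induced values were lower, with induced pool 1 close to control pool 2, and the change of -0.25 ± 0.17 did not pass (adjusted p = 0.334, 95% interval -0.65 to 0.15). It was -0.14 (adjusted p = 0.685) without control pool 1 and -0.16 (adjusted p = 0.658) without induced pool 2. WRKY6, which acts in senescence, defence and phosphate supply, read 393 and 290 in the control and 350 and 369 in the induced pools. The control values of WRKY6 enclosed the induced ones, and the change was 0.08 ± 0.17 (adjusted p = 0.776, 95% interval -0.32 to 0.49), or between -0.12 and 0.28 with arrays left out in turn.

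**Figure D2:**
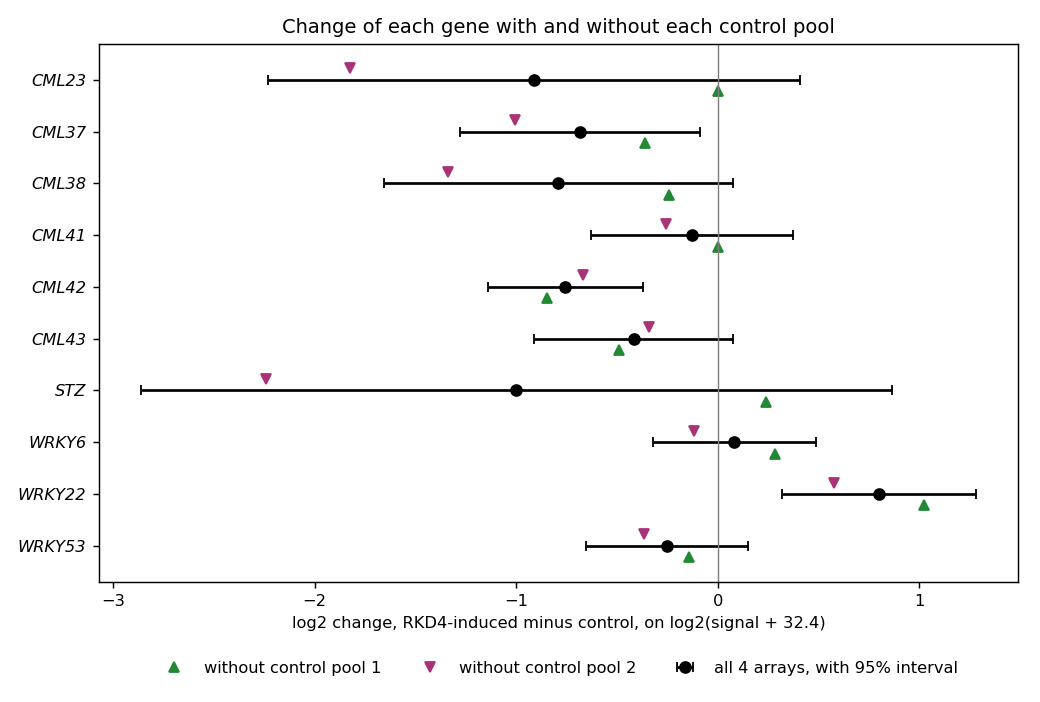
Change of each gene (x axis, RKD4-induced minus control on the log2(signal + 32.4) scale) from all 4 arrays (black circles, bars are 95% intervals), without control pool 1 (green triangles pointing up) and without control pool 2 (purple triangles pointing down). The triangles of STZ (0.24 and -2.24) and CML23 (0.00173 and -1.82) lie farthest apart. Those of CML42 and WRKY22 stay on the side of their fitted value, as do those of CML37, CML38, CML43 and WRKY53.

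Counted without a test, 5 genes (CML37, CML38, CML42, CML43 and WRKY53) were lower in both induced pools than in both control pools, WRKY22 was higher, and 4 overlapped. Over all probe sets 61.4% did not overlap, 37.0% lower and 24.4% higher in induced seedlings. Set against control pool 1 alone, 9 of the 10 genes were lower in both induced pools, where 48.0% of all probe sets were. Set against control pool 2 alone, the same 5 genes were lower, where 47.5% of all probe sets were, and WRKY6 and WRKY22 were higher, where 33.6% were. Against control pool 1 WRKY22 alone was higher, where 33.0% of all probe sets were. Without induced pool 1, 8 of the 10 genes were lower and WRKY22 higher, where 47.2% and 32.8% of all probe sets were. Without induced pool 2, 5 were lower and WRKY22 higher, where 47.5% and 33.1% were. Limma fits with an array left out do not hold the gap between the pools of that line, so their calls are counted as a description only. In the limma fits, 1 of the 10 genes passed without control pool 1 (WRKY22, higher) and 9.77% of all probe sets did. Without control pool 2, 4 of the 10 passed (CML23, CML37, CML38 and STZ, all lower) and 9.43% of all probe sets did. Without induced pool 1 or pool 2 none of the 10 passed, while 8.07% and 8.38% of all probe sets did, and 1 and 2 of the 10, in that order, had an unadjusted p under 0.05.

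The pools of a line were then compared with each other, as pool 2 minus pool 1 on the same log2 scale, with no test because each side is a single array. In the control line STZ lay at -2.48, a raw difference of 5.95-fold, and only 7 of the 22746 probe sets, STZ among them, were as far apart. CML23 lay at -1.83, as far apart as 21 probe sets, and CML38 at -1.09, as far apart as 132. These 3 were more than 2-fold apart on this scale, where 0.884% of all probe sets were. CML37 at -0.65, a raw difference of 2.31-fold, was just beyond the 95th percentile of absolute differences over all probe sets, 0.64. The other 6 genes were within that percentile, between 0.15 (CML43) and 0.45 (WRKY22) in absolute difference. The median absolute difference of the 10 genes was 0.42, against 0.17 over all probe sets. The 10 genes were chosen with earlier results of these data known. Setting them beside all probe sets, here and for the induced line below, is therefore a description only.

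In the RKD4-induced line 7 of the 10 genes had closer pools than in the control line, where 50.7% of all probe sets did, while the pools of CML41, CML42 and CML43 were farther apart. STZ was again the farthest apart, at -0.95 or 2.01-fold in raw signal, a distance reached by 97 probe sets or 0.426% of them. No other gene of the 10 passed the 95th percentile of that line, 0.58, and none was more than 2-fold apart on the log2 scale, where 0.251% of all probe sets were. CML23, CML38 and CML37, far apart in the control line, lay at -0.14, -0.06 and -0.10 here. The median absolute difference of the 10 genes was 0.21, close to the 0.16 over all probe sets. Pool 1 was the higher pool for 8 of the 10 genes in the control line and for 8 in the induced line, against 49.4% and 50.4% of all probe sets. For 7 genes pool 1 was higher in both lines, where 26.6% of all probe sets were. CML42 had the higher pool 2 in both lines.

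**Figure D3:**
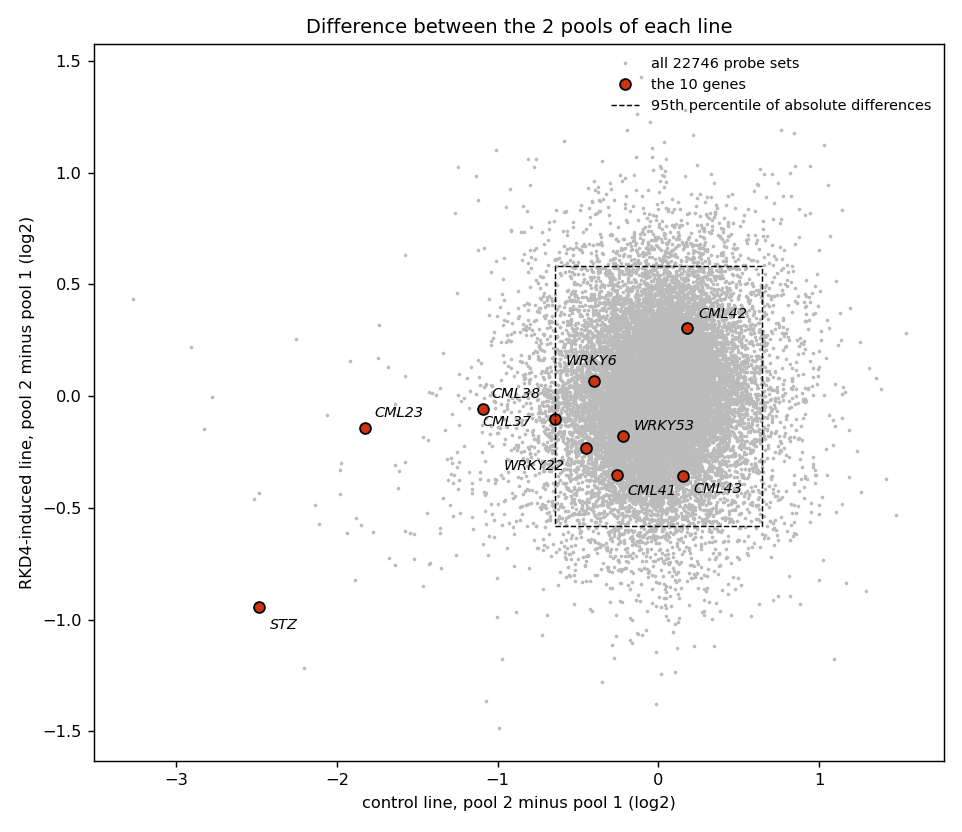
Difference between the pools (pool 2 minus pool 1, log2(signal + 32.4) scale) in the control line (x axis) and in the RKD4-induced line (y axis) for all 22746 probe sets (grey) and the 10 genes (red). The dashed box marks the 95th percentile of absolute differences in each line (0.64 and 0.58). STZ, CML23, CML38 and, at its edge, CML37 lie outside the box on the side where control pool 1 is higher.

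Other genes of calcium signalling, WRKY, zinc finger and rapid stress lists were read where the annotation names them, which gave 11 further genes. None of the listed calmodulin, calcium-dependent kinase, CAMTA, jasmonate or MAP kinase genes is named. Of the 11, 1 fell and none rose, where 10.4% of all genes fell and 9.59% rose, and their median change was 0.04. The one that fell was CML30, a calmodulin-like protein sent to mitochondria, which read 203 and 252 in the control and 92.0 and 109 in the induced pools. All its induced values lay below all its control values, and pool 2 was the higher pool in both lines, as for CML42. CML30 fell by 0.96 ± 0.18 (adjusted p = 0.0143). The call was kept without control pool 1 (-1.10, adjusted p = 0.0475) and lost with each of the other arrays left out (adjusted p 0.0671 to 0.0936). CML30 and CML42 were thus the 2 of 8 measured calmodulin-like genes that fell.

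AT1G76640, which the reference table also lists as CML39, lies next to CML38 in gene order. It read 37.3 in control pool 1 and 2.73, 4.32 and 0.882 on the other arrays, so it passed the pseudocount on control pool 1 alone. Its change of -0.50 ± 0.32 (adjusted p = 0.322) was -0.00696 without control pool 1 and -0.99 without control pool 2. CML38, AT1G76640, CML23 and CML37 thus shared a high control pool 1. The other measured calmodulin-like genes did not: CML42, CML43 and CML30 read higher in control pool 2, and CML41 lay at -0.26. Probe sequences were not used here, so cross-hybridisation between related calmodulin-like transcripts was not tested.

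Of the 4 further WRKY genes none passed. ZAP1, also called WRKY1, read 548 and 587 in the control and 776 and 728 in the induced pools, with no overlap, and its change of 0.39 ± 0.11 missed the threshold narrowly (adjusted p = 0.0504). Over the alternatives its adjusted p lay between 0.0338 and 0.192. It passed with a pseudocount of 1 (0.41, adjusted p = 0.0419) or at the 10th percentile (adjusted p = 0.0455) and with median centring (0.44, adjusted p = 0.0383). It also passed with the 30th percentile filter (adjusted p = 0.0345) and with same-numbered pools as a block (adjusted p = 0.0338). It did not pass with quantile normalization (adjusted p = 0.0524), 1 probe set per gene (adjusted p = 0.0503) or no variance trend (adjusted p = 0.0938). Nor did it pass with any array left out, where the change lay between 0.34 and 0.44. WRKY47 (0.25 ± 0.21, adjusted p = 0.461), WRKY20 (0.04 ± 0.15, adjusted p = 0.898) and WRKY42 (-0.20 ± 0.19, adjusted p = 0.524) overlapped between the lines, and WRKY42 was under the pseudocount on every array. Over the 7 WRKY genes measured 1 rose and none fell, where 9.59% of all genes rose and 10.4% fell, and the median change was 0.08.

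Among the remaining listed genes, those of rapid stress responses differed in whether control pool 1 stood out. ORA47, an AP2/ERF activator of jasmonate synthesis, read 223 in control pool 1 and 72.7, 97.1 and 66.5 on control pool 2 and induced pools 1 and 2. Its change was -0.53 ± 0.42 (adjusted p = 0.422), and 0.11 (adjusted p = 0.828) without control pool 1. PUB23, a U-box ubiquitin ligase that restrains immune responses, read 384 in control pool 1 and 170, 142 and 175 on the others. Its change of -0.61 ± 0.34 (adjusted p = 0.256) was -0.09 without control pool 1 and -1.13 without control pool 2. ORA47 and PUB23 were both more than 2-fold apart between the control pools on the log2 scale, at -1.28 and -1.04.

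The related ligase genes PUB22 and PUB24 and the immune kinase gene BIK1 did not follow that pattern. PUB22 read 392 and 246 in the control and 262 and 395 in the induced pools, so that the lines overlapped and the higher pool was not the same in both. PUB24 read 45.3 and 48.7 against 47.2 and 56.0, and BIK1 read 808 and 905 against 822 and 939. Their changes of 0.04 ± 0.26 (PUB22), 0.08 ± 0.18 (PUB24) and 0.04 ± 0.12 (BIK1) did not pass, with adjusted p of 0.936, 0.798 and 0.869.

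**Figure D4:**
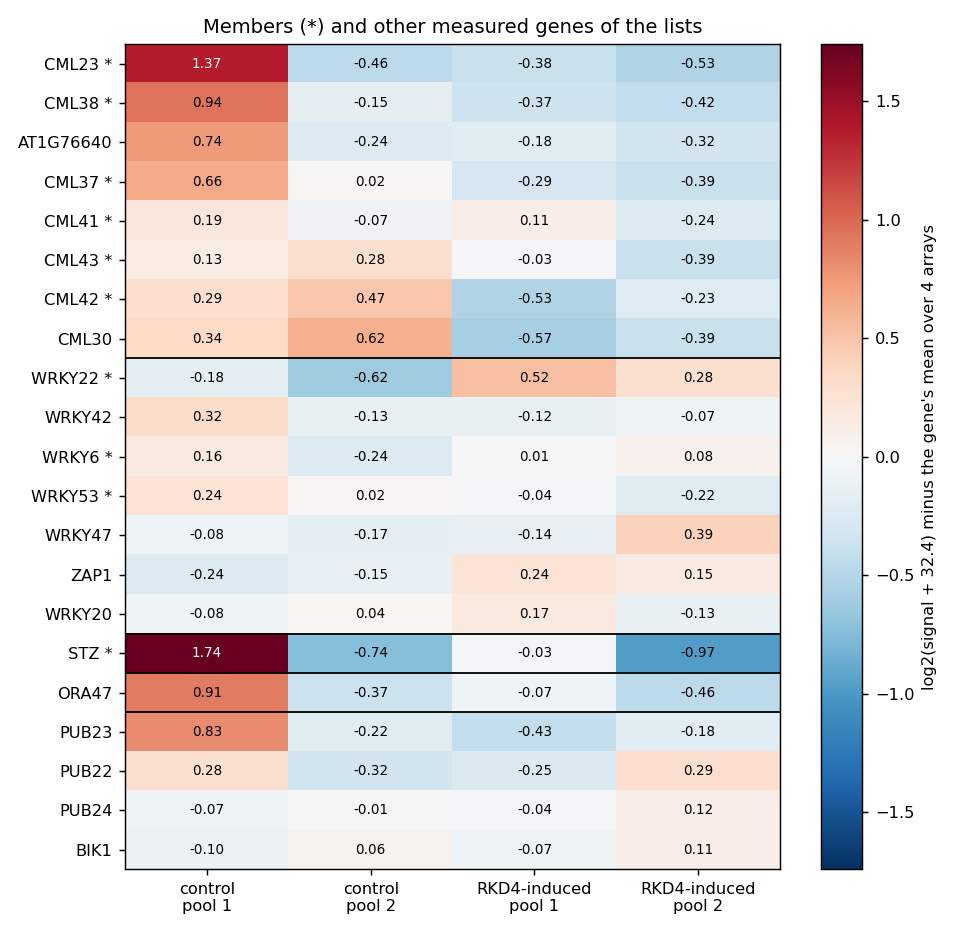
Values of the 10 genes (asterisks) and the 11 further listed genes on each array, as log2(signal + 32.4) minus the gene's mean over 4 arrays, with red above and blue below that mean; lines separate calmodulin-like, WRKY, STZ, ORA47 and immune response genes. The control pool 1 column is darkest for STZ (1.74), CML23 (1.37), CML38 (0.94) and ORA47 (0.91).

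The 10 genes did not share 1 profile closely. Their median profile, after centring each gene on its mean, was 0.26 and -0.11 in control pools 1 and 2 and -0.03 and -0.31 in induced pools 1 and 2. The distance of the single genes from it, as the root of the summed squared differences over the 4 arrays, was smallest for WRKY53 (0.16) and largest for STZ (1.74). Of 1525 other genes with a symbol, the nearest to that profile were PRL (distance 0.15), Cpn60beta2 (0.15), AtRZ-1c (0.16), ALATS (0.16), JAL23 (0.17) and AOP3 (0.17), where the median distance was 0.58. None of these 6 showed a gap between the control pools as wide as that of CML37, and with 4 arrays the likeness is a description only.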

How the data were processed

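Biotin-labelled cRNA was made from total RNA of seedling pools with Affymetrix's 3' IVT kit, according to the labels, and the submitters' processing notes name GCOS; its version and settings are not given. As deposited, the values are linear intensity, 1 signal per probe set, with a 2% trimmed mean near 500.05 on every array, and were not scaled again. Detection calls were not used. After leaving out 64 AFFX probe sets, 22746 were tested.

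Each value was turned into log2(signal + 32.4), the added number being the 25th percentile over all tested values. A model with the line as the only term was fitted to the 4 arrays with limma 3.58.1 (R 4.3.3), with a mean-variance trend and two-sided p-values adjusted over all probe sets. Variances were moderated across probe sets, with 4.12 prior and 2 residual degrees of freedom. The smallest p of an exact permutation test on such groups is 0.333, so none was run. The fit was tested on simulated data. Probe sets were named from the platform annotation, updated to the TAIR10.1 gene table by gene ID: 13513 have 1 gene (13436 matched the table), 503 several and 8730 none. The text names all members, up to 3 others of each list with the largest change, the 6 genes nearest in profile and the markers. WRKY20 and BIK1 fall outside this rule and were named, after their values were seen, so that each measured gene of their lists has a value. The members and lists were chosen with earlier results of these data known. Sequences were not used here. Alternatives were other scalings, pseudocounts, filters, models and arrays left out.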

Additional observations from a re-analysis of the deposited data

How the results depend on the processing

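Of 118 values of the 10 genes under alternatives, 101 kept direction and side of the threshold. Over other scalings, pseudocounts, the filter, the fit without the variance trend and 1 probe set per gene, CML42 and WRKY22 passed and no other of the 10 did. CML37 and CML41 were left out by the filter (mean signal under the 30th percentile). With arrays left out in turn, 0 to 4 of the 10 genes passed, in fits with fewer residual degrees of freedom that take a lone array to vary as the other line does. The count lower in all induced pools lay between 5 and 9, where 47.2% to 48.0% of all probe sets were lower, and the count higher between 1 and 2, where 32.8% to 33.6% were, an alternative added after seeing the data. Ranges that crossed 0 were -1.82 to 0.00173 for CML23, -0.30 to 0.0502 for CML41, -2.24 to 0.24 for STZ, -0.12 to 0.28 for WRKY6, -0.11 to 0.19 for WRKY20, -0.0149 to 0.52 for WRKY47, -0.42 to 0.0281 for WRKY42, -1.17 to 0.11 for ORA47, -0.0555 to 0.13 for BIK1 and -0.26 to 0.35 for PUB22. Of the 11 further genes, 2 passed in place of 1 with the filter, median centring, either other pseudocount (10th percentile or 1) and the replicate block, and 0 to 2 with an array left out. The count over all probe sets was 4954 (2281 higher, 2673 lower), 2538 with 1 probe set per gene, which tests fewer, 2088 at an adjusted p under 0.01, and 1835 to 2223 with an array left out. Median centring turned the split to 2578 higher and 2283 lower. For the other values the cause was not tested.

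The labels do not tie same-numbered pools to a shared day, and the correlation of their deviations was 0.0807 over all probe sets, so the numbers were not taken as pairs. With the replicate block 6301 probe sets and 3 of the 10 genes passed, the third being STZ (adjusted p = 0.0294). Reading a gene through another probe set was not possible, because each of the 10 genes has 1.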

Other observations

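Genes that read more than 2-fold higher in control pool 1 than in control pool 2, like STZ and CML23, were listed after the values were seen. No test is therefore given. Such a list does not separate a high control pool 1 from a low control pool 2. Of the 201 probe sets more than 2-fold apart between the control pools on the log2 scale, 156 were higher in pool 1 and 45 in pool 2. The 156 include 79 named genes, of which 16 have a symbol, and 3 of those 16 are CML23, CML38 and STZ.

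The gene with a symbol that was farthest apart was ICL, isocitrate lyase of the glyoxylate cycle, through which seedlings use their oil reserves. It read 727 in control pool 1 and 78.3, 71.3 and 70.9 on the other arrays. LCR67, a small cysteine-rich protein gene, read 181 and 18.7 in the control and 2.72 and 0.740 in the induced pools. The expansin-like gene EXLA3 read 101 and 21.0 against 44.5 and 30.9. AR781 read 423 and 162 against 340 and 334, so for this gene control pool 2 was low and control pool 1 lay nearer to the induced pools.

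Among genes named by locus, AT4G27652, AT4G27654 and AT4G27657 follow each other in gene order, and each read highest in control pool 1. AT4G27652 read 1513 and 371 in the control and 717 and 457 in the induced pools. AT4G27654 read 253 and 44.9 against 73.9 and 40.3, and AT4G27657 read 590 and 76.5 against 310 and 217. In all 3 pool 1 was the higher pool of both lines, as for STZ. For the control line this was fixed by how the list was made. In the induced line pool 1 was higher for 107 of the 156 probe sets (68.6%), so the trait is common in the list.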
